A study of Mus musculus with 12 samples.

Results

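The genes described are p53 and its circle in the mouse: Trp53, which encodes p53 itself, the regulators Mdm2 and Cdkn2a, and the target genes Cdkn1a, Ccng1, Eda2r, Sesn2, Bax, Phlda3 and Zmat3. These 10 genes were looked up by symbol among probesets annotated to that symbol alone. Of them, 8 had such probesets, 72 of the 207232 probesets with 1 symbol, and each of the 8 had a gene level among the 15025 genes tested. Trp53 and Bax had no probeset named in the annotation used, so their RNA was not analysed here. The set was chosen by gene names with earlier measured values of these arrays in view, namely line differences in gene level such as the low Eda2r level in 4T07, and Cdkn2a acts upstream of p53 and is not one of its targets. The members' gene levels in the lines are therefore given as a description, with no test.

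The data are 12 exon arrays of primary tumours grown from 4 mouse mammary carcinoma lines, 4T1, 4T07, 168FARN and 67NR, with 3 arrays per line. All 4 groups were BALB/c females aged 3 months with the cells injected into a mammary fat pad, and none carried a further treatment or an engineered allele per the labels. The lines are sister lines from a single mouse tumour, known as models of spread: 4T1 completes metastasis, 4T07 cells reach the lung, 168FARN cells reach lymph nodes, and 67NR stays in place. Each behaviour is represented by 1 line, so line and behaviour cannot be told apart. The labels number the tumours within a line without saying that each came from its own animal, so the spread between arrays may be partly technical. The labels give 13 mice injected with 4T1, 15 with 4T07, 11 with 168FARN and 8 with 67NR, and tumours of 1 to 2 cm at excision. A gene level is the median log2 signal of the gene's probesets on an array, and means are given ± SD over the 3 arrays of a line (n = 3). The olfactory receptor genes, which tumours are not known to use, set the background: 95% of them averaged under 5.08, against a median of 7.39 for all genes.

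As background, p53 is a transcription factor that is held low by the ubiquitin ligase MDM2 and is released when DNA is damaged or when an oncogene is active. The Cdkn2a locus feeds in from above, since its ARF product binds MDM2, while its p16 product blocks the cyclin D kinases. Once active, p53 switches on genes that stop the cell cycle, promote cell death, repair DNA and limit growth, and also Mdm2, its own inhibitor. In mammary tumours the pathway is known as a barrier to growth that is often lost.

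Sequences near the start sites are shown because most of these genes are known as direct targets of p53. RefSeq (GRCm38.p6) gave 11 promoters for 9 of the 10 genes, each of 300 bases, from 250 before to 50 after a start site. They were searched for the p53 consensus decamer, which reads the same on both strands. An exact decamer was found in 5 of the 11, in Trp53, Cdkn1a, Mdm2, Ccng1 and Bax, against 8.36% of all 32851 promoters. A pair of decamers no more than 13 bases apart, with at most 2 mismatches in all, was found in 3 of the 11, in Cdkn1a, Ccng1 and Bax, against 10.1% of all promoters. The promoters of Cdkn1a and Ccng1, each with an adjacent pair, and of Eda2r, the gene whose level differed most between lines, are printed 5′ to 3′ on the gene's strand, with the stretches of matched pairs in capitals.
Cdkn1a upstream promoter, chr17:29090729-29091028, plus strand: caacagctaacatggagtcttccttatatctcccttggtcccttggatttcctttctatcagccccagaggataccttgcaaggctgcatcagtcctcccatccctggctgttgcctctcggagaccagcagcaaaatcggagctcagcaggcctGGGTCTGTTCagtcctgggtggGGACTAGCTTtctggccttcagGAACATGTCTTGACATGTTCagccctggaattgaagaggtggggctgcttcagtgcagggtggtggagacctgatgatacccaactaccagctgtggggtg
Ccng1 promoter, chr11:40755237-40755536, minus strand: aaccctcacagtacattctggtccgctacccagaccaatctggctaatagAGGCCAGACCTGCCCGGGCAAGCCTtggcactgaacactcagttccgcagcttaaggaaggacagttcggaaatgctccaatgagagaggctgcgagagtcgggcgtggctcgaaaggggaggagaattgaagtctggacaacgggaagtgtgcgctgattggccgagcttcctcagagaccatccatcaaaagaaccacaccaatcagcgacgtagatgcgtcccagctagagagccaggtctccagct
Eda2r promoter, chrX:97377160-97377459, minus strand: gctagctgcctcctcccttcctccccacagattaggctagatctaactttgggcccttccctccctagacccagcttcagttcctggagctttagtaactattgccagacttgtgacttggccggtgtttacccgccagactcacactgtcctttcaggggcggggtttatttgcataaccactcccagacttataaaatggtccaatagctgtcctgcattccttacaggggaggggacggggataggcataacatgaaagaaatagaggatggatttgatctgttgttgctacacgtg
In the Cdkn1a promoter the adjacent decamers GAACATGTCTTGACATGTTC hold 1 mismatch and no spacer, and begin at -51 from the start site. The first of them also pairs, with 0 mismatches and a spacer of 12 bases, with a decamer that begins at -73. In the Ccng1 promoter the adjacent decamers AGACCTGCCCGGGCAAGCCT also hold 1 mismatch and begin at -195. The downstream promoter of Cdkn1a, not printed, held no exact decamer and no such pair. Matches of this kind describe the letters in these windows, and no match says nothing of sites elsewhere.

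In tumours of 4T1 and of 4T07, every one of the 8 measured genes was lower than in 67NR tumours, with no overlap between arrays. Against 168FARN, 7 of the 8 were lower in each of 4T1 and 4T07 with no overlap, and Cdkn2a was the exception. The distance from 67NR differed widely between genes, from -0.61 on the log2 scale for Sesn2 to -2.06 for Cdkn1a in 4T1 tumours, with Eda2r further off at a level in the range of the background. As a background, 25.4% of all 15025 genes were lower without overlap in 4T1 than in 67NR, 20.5% in 4T07 than in 67NR, 28.0% in 4T1 than in 168FARN and 22.3% in 4T07 than in 168FARN. None of the 8 was higher without overlap in any of the 6 line pairs. Of all genes, 18.7% were higher without overlap in 4T1, 16.4% in 4T07 and 22.3% in 168FARN than in 67NR, and 18.0% in 4T1 and 14.8% in 4T07 than in 168FARN. The median difference of the 8 genes was -1.48 in 4T1 and -1.52 in 4T07 against 67NR, where the median of all genes was -0.04 in both. Since earlier results bore on the choice of genes, nothing is read from these counts.

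**Figure D1:**
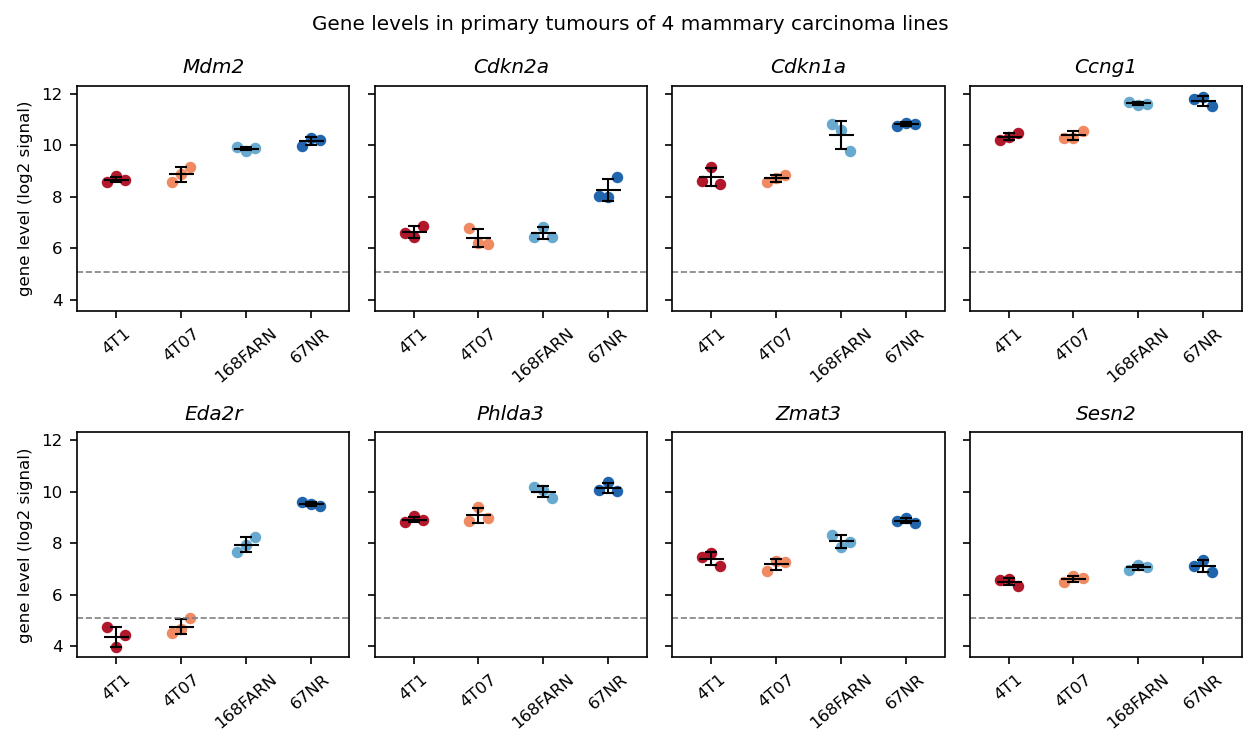
Gene level (log2 signal) of the 8 measured genes on each array, by line, with the mean and SD of 3 arrays as black bars and the 5.08 background of olfactory receptor genes as a dashed line. In every panel the 4T1 and 4T07 points lie under the 67NR points, and Eda2r alone reaches the dashed line.

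Among the regulators, Mdm2 is both the inhibitor and a target of p53. Its level was 8.57, 8.78 and 8.64 on the 4T1 arrays, 8.57, 8.86 and 9.16 on the 4T07 arrays, 9.92, 9.78 and 9.89 on the 168FARN arrays, and 9.98, 10.29 and 10.18 on the 67NR arrays. The 4T1 and 4T07 arrays overlapped and all 6 lay under the other arrays, while 168FARN ended just under 67NR. The difference was -1.49 (SE 0.16) for 4T1 and -1.29 (SE 0.16) for 4T07 against 67NR, and -0.28 (SE 0.16) for 168FARN against 67NR. All 14 probesets of Mdm2 were lower without overlap in 4T1 than in 67NR, and likewise all 14 in 4T07, with differences from -1.88 to -0.68 and from -1.59 to -0.76 on the log2 scale.

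Cdkn2a, the gene of p16 and ARF, followed another order from the rest. Its level was 6.59, 6.43 and 6.88 in 4T1, 6.79, 6.22 and 6.16 in 4T07, 6.43, 6.84 and 6.44 in 168FARN, and 8.04, 7.98 and 8.75 in 67NR. The 67NR arrays stood above all 9 others, and the other lines overlapped with each other. Against 67NR the difference was -1.63 (SE 0.24) in 4T1, -1.87 (SE 0.24) in 4T07 and -1.69 (SE 0.24) in 168FARN. Between 4T1 and 168FARN it was 0.06 (SE 0.24), and between 4T07 and 168FARN -0.18 (SE 0.24).

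Cdkn1a encodes p21, the inhibitor of cyclin-dependent kinases through which p53 stops the cell cycle. The 4T1 arrays read 8.61, 9.16 and 8.50, the 4T07 arrays 8.58, 8.73 and 8.85, the 168FARN arrays 10.81, 10.61 and 9.79, and the 67NR arrays 10.73, 10.88 and 10.83. All 6 arrays of 4T1 and 4T07 lay under all 6 arrays of 168FARN and 67NR, and 168FARN overlapped with 67NR. The difference was -2.06 (SE 0.24) in 4T1 and -2.09 (SE 0.24) in 4T07 against 67NR, which makes the 67NR level 4.16-fold and 4.27-fold higher. Array 3 of 168FARN was the lowest of its line at 9.79. On that array 14 skeletal muscle markers averaged 8.94, against 5.52 on array 1. Array 2 was high in them as well, at 8.01, beside a Cdkn1a level of 10.61. Their part in the Cdkn1a values was not tested. On array 1 alone, 168FARN stood at -0.01 from 67NR, against -0.41 (SE 0.24) for the 3 arrays.

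Ccng1 encodes cyclin G1, a p53 target that recruits a phosphatase to MDM2. It read 10.19, 10.32 and 10.49 in 4T1, 10.29, 10.28 and 10.56 in 4T07, 11.68, 11.58 and 11.62 in 168FARN, and 11.78, 11.86 and 11.51 in 67NR. The arrays fell into a lower set of 4T1 and 4T07 and an upper set of 168FARN and 67NR, and within each set the lines overlapped. Against 67NR the difference was -1.38 (SE 0.15) in 4T1, -1.34 (SE 0.15) in 4T07 and -0.09 (SE 0.15) in 168FARN.

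Eda2r encodes a receptor of the TNF family that binds ectodysplasin A2 and is known as a p53 target. It read 4.73, 3.96 and 4.41 in 4T1, 4.52, 4.66 and 5.09 in 4T07, 7.65, 7.92 and 8.25 in 168FARN, and 9.61, 9.52 and 9.46 in 67NR. The order was 67NR, then 168FARN, then 4T07 and 4T1 together, and only the last pair overlapped. All 3 arrays of 4T1 and 2 of the 3 of 4T07 were in the range of the background, so 67NR was at least 21.8-fold higher than 4T1 and at least 21.8-fold higher than 4T07. On the same footing 168FARN was at least 7.26-fold higher than 4T1. The difference of 168FARN from 67NR was -1.59 (SE 0.22) on the log2 scale, and all 7 probesets of the gene were lower there without overlap. Within 168FARN, Eda2r rose from array 1 to array 3. The mean of the 14 skeletal muscle markers did as well, at 5.52, 8.01 and 8.94. Their part in the Eda2r values was not tested.

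Phlda3 encodes a small protein that competes with the kinase AKT for membrane lipids. It read 8.83, 9.04 and 8.89 in 4T1, 8.86, 9.41 and 8.98 in 4T07, 10.18, 10.05 and 9.77 in 168FARN, and 10.08, 10.38 and 10.01 in 67NR. As with Ccng1, the lower set of 4T1 and 4T07 and the upper set of 168FARN and 67NR did not overlap. The difference from 67NR was -1.24 (SE 0.18) in 4T1, -1.07 (SE 0.18) in 4T07 and -0.16 (SE 0.18) in 168FARN.

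Zmat3 encodes an RNA-binding zinc finger protein induced by p53. It read 7.47, 7.61 and 7.11 in 4T1, 6.93, 7.32 and 7.29 in 4T07, 8.33, 7.86 and 8.03 in 168FARN, and 8.86, 8.97 and 8.80 in 67NR. Here 168FARN lay between the other lines without overlap on either side, as it did for Mdm2 and Eda2r. The difference from 67NR was -1.48 (SE 0.18) in 4T1, -1.70 (SE 0.18) in 4T07 and -0.81 (SE 0.18) in 168FARN. With array 1 as the lone array of 168FARN, the distance of that line from 67NR was -0.54.

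Sesn2 encodes sestrin 2, a stress protein that restrains mTOR signalling and is known to answer to other stress pathways besides p53. It read 6.58, 6.59 and 6.35 in 4T1, 6.48, 6.71 and 6.66 in 4T07, 6.97, 7.16 and 7.06 in 168FARN, and 7.13, 7.34 and 6.87 in 67NR. The sets were the same as for Ccng1, but the distances were the smallest of the 8 genes: -0.61 (SE 0.15) in 4T1, -0.49 (SE 0.15) in 4T07 and -0.05 (SE 0.15) in 168FARN against 67NR. Of its 13 probesets, 6 were lower without overlap in 4T1 than in 67NR, and 4 in 4T07.

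**Figure D2:**
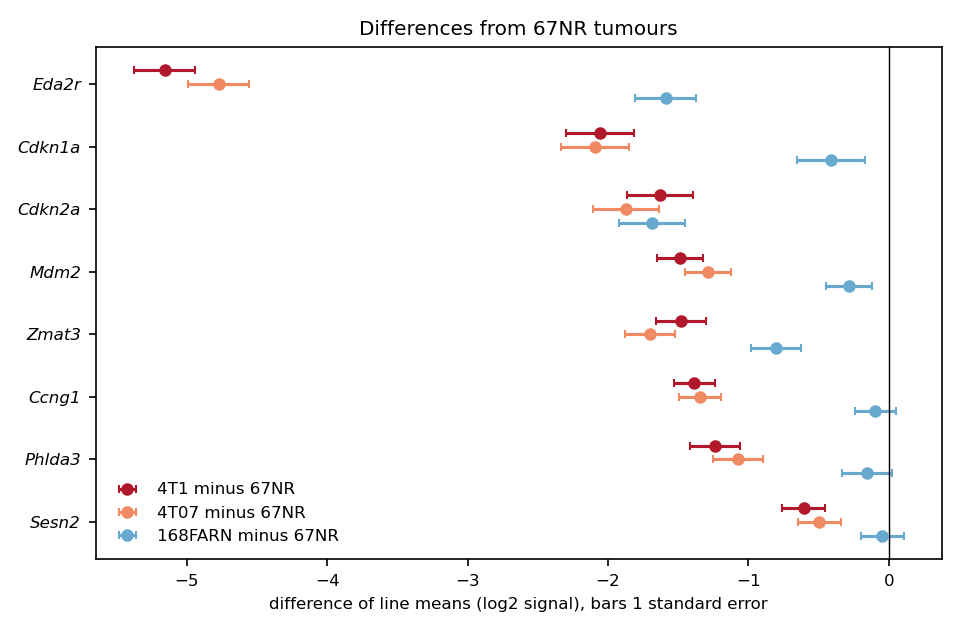
Difference of line means (log2 signal) from 67NR for 4T1, 4T07 and 168FARN, with bars of 1 standard error from the fit of all arrays. The 4T1 and 4T07 points keep close to each other for each gene, while 168FARN lies near 0 for Ccng1, Phlda3 and Sesn2 and level with the other lines for Cdkn2a. The Eda2r points of 4T1 and 4T07 are set by signals near the background and give no exact distance.

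Between 4T1 and 4T07 tumours all 8 genes overlapped. The differences ran from -0.20 for Mdm2 to 0.24 for Cdkn2a, leaving out Eda2r, for which 5 of the 6 arrays were in the range of the background. Over all genes, 10.1% were lower and 7.87% higher without overlap in 4T1 than in 4T07. Between 168FARN and 67NR, 4 of the 8 genes, Mdm2, Cdkn2a, Eda2r and Zmat3, were lower in 168FARN without overlap, against 18.5% of all genes. The other 4, Cdkn1a, Ccng1, Phlda3 and Sesn2, overlapped there.

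The closeness of the patterns was measured as the root mean square difference over the 12 arrays, after each gene's own mean was taken away. Mdm2 and Ccng1 were nearest to each other at 0.17 on the log2 scale, followed by Mdm2 and Phlda3 at 0.21. Eda2r, with its wide range, was 1.31 or more from each of the other genes. Across all genes tested, those nearest to Cdkn1a were Rhpn2 (0.28), the aldehyde dehydrogenase gene Aldh3a1 (0.28) and Ptgs1, which encodes cyclooxygenase 1 (0.30). Nearest to Eda2r were Pdpn, the gene of podoplanin (0.62), the sulfatase gene Arsj (0.65) and the heparan sulfate enzyme gene Ndst4 (0.66). Pdpn, for example, averaged 7.92 ± 0.17 in 4T1, 8.11 ± 0.15 in 4T07, 11.50 ± 0.11 in 168FARN and 11.75 ± 0.11 in 67NR. Arsj averaged 4.57 in 4T1 and 4.45 in 4T07, and Ndst4 2.94 and 2.95, all under the 5.08 background. Their closeness to Eda2r, itself dim in these lines, rests in part on such signals. These are descriptions of 12 arrays in 4 lines, and nothing on shared control follows from them.

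The list means of neutrophil and epithelial markers moved along the same divide between the lines, and those of other cell types did not. Single markers departed from their list mean. The epithelial marker Krt8 averaged 12.07 in 4T1, 11.65 in 4T07 and 11.44 in 168FARN, against 6.60 in 67NR. The neutrophil marker Camp averaged 5.93, 6.27, 6.09 and 5.85 in the same order of lines. The mean level of 11 neutrophil markers was 7.93 to 8.18 on the 4T1 arrays and 8.58 to 8.89 on the 4T07 arrays, against 6.15 to 6.97 for 168FARN and 5.84 to 6.80 for 67NR. The mean of 8 epithelial markers was 9.07 to 9.63 in 4T1 and 8.53 to 9.97 in 4T07, against 7.28 to 7.40 in 168FARN and 5.79 to 6.87 in 67NR. The mean of 10 fibroblast markers was highest in 168FARN, at 10.46 to 10.62. It was 9.13 to 9.42 in 4T1, 9.25 to 9.78 in 4T07 and 8.42 to 8.92 in 67NR. By limma, 6 of the 10 were lower and 3 higher in 4T1 than in 168FARN, and as many in 4T07. Among the higher, Col1a1 averaged 11.64 in 4T1 and 11.44 in 4T07, against 10.34 in 168FARN and 9.70 in 67NR. The mean of 10 macrophage markers was highest in 67NR, at 10.02 to 10.09. Of these, Adgre1 averaged 9.11 in 4T1 and 9.10 in 4T07, against 9.81 in 168FARN and 9.76 in 67NR. Endothelial markers, 7 in number, were at 8.12 to 8.62 in 4T1, 8.13 to 8.71 in 4T07 and 7.85 to 8.17 in 168FARN, against 8.65 to 9.02 in 67NR. The 7 T and NK cell markers were at 6.20 to 6.88 in 4T1, 6.93 to 7.91 in 4T07 and 6.02 to 6.13 in 168FARN, against 6.88 to 7.49 in 67NR. None of the 8 epithelial markers lay under 5.08 on any array, and of the neutrophil markers up to 4 did on a 67NR array and 0 on any 4T1 or 4T07 array. The part of these cells in the levels above was not tested, and in bulk tumours fewer cells that use a gene and less RNA per cell cannot be told apart.

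**Figure D3:**
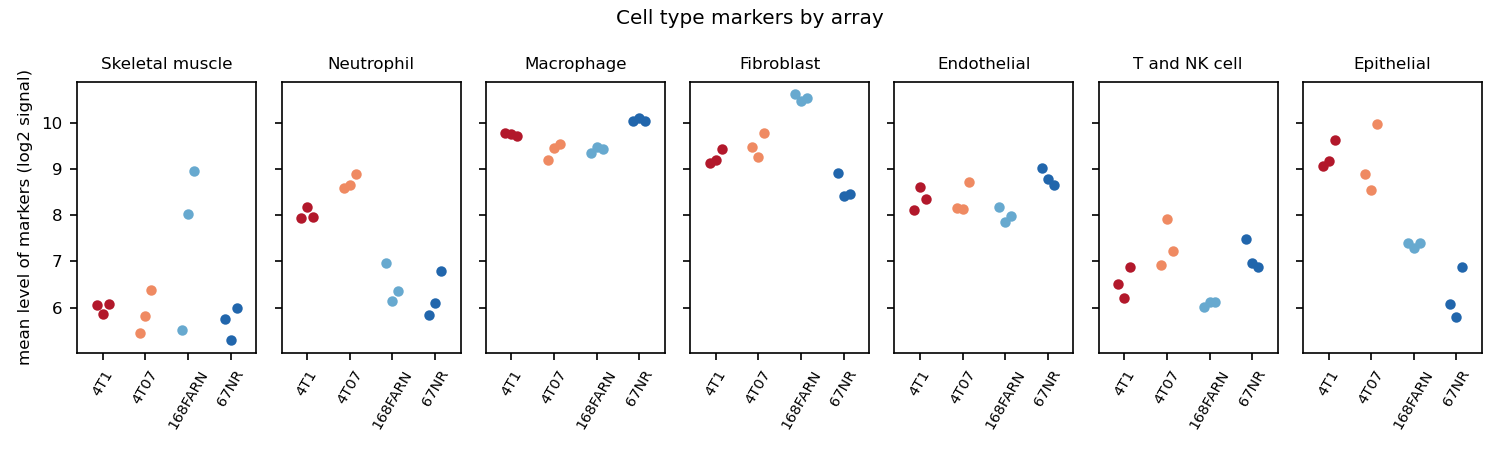
Mean log2 signal of the measured markers of 7 cell types on each array, by line. Neutrophil and epithelial markers are higher on all 4T1 and 4T07 arrays than on all 168FARN and 67NR arrays, and skeletal muscle markers are high on 168FARN arrays 2 and 3.

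How far the probesets of a gene moved together was described with limma's diffSplice, which sets the change of each probeset against the other probesets of its gene. Calls needed an adjusted p below 0.05 together with a log2 change of 1 or more relative to the gene. Of the 66 probesets of the 8 genes that were bright enough to test, 7 were called in 1 or more of the 6 line pairs, against 3.67% of all 149671 probesets tested. They belonged to Cdkn2a (4), Ccng1 (1), Phlda3 (1) and Sesn2 (1), and none of the tested probesets of Cdkn1a, Eda2r, Mdm2 or Zmat3 was called. These 7 made 20 calls over the line pairs, and a splicing index, another test of the same probesets, called 11 of those 20. Of all probesets tested, 1.30% were called in 4T1, 1.26% in 4T07 and 1.07% in 168FARN against 67NR, 1.99% in 4T1 and 1.40% in 4T07 against 168FARN, and 0.178% in 4T1 against 4T07. A probeset that stays level in a gene that moves gets a relative change of nearly the gene's own size, so the calls also carry the gene's difference, which bore on the choice of the genes. The calls are therefore a description, given with no p-value, and nothing is read from their number. The exons behind the probesets were not analysed here.

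The 8 probesets of Cdkn2a did not behave alike. On 6 of them all 3 arrays of 67NR lay above all 9 other arrays. Of these, probeset 4721278 read only 4.58 to 5.11 in 67NR, under 5.98, the 95th percentile of olfactory receptor probesets. Probeset 5109689 stood at 9.29 to 9.51 in 67NR against 5.83 to 6.62 on the others. Relative to its gene it changed by -1.96 on the log2 scale in 4T1, by -2.33 in 4T07 and by -1.83 in 168FARN against 67NR. Probeset 4365486, too dim on average to be tested, was at 7.07 to 7.37 in 67NR and at 2.49 to 4.43 on the other 9 arrays. In contrast, probeset 4932098 read 8.45 to 9.59 on those 9 arrays, with 67NR inside that range. Its relative change was 1.22 in 4T1, 1.99 in 4T07 and 1.79 in 168FARN, and the splicing index called it too in all 3 comparisons. Probeset 4976462 overlapped as well, at 7.98 to 8.78 in 67NR against 7.29 to 8.16 on the other 9 arrays. It was called in the same 3 comparisons, but not by the splicing index. Without 67NR array 1 the calls over all 8 genes numbered 12 instead of 20.

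In Ccng1, 8 of 9 probesets were lower without overlap in 4T1 than in 67NR, with differences down to -1.93 on the log2 scale. The ninth, probeset 5104687, read 11.42, 11.30 and 11.41 in 4T1, 11.20, 11.00 and 10.56 in 4T07, 11.25, 11.19 and 10.84 in 168FARN, and 11.22, 11.54 and 11.36 in 67NR. The 4T1 and 67NR arrays overlapped on it, and its relative change in 4T1 over 67NR was 1.61, beside a gene difference of -1.38. In Phlda3, probeset 4489214 kept to 10.52 to 11.08 over all 12 arrays, with a relative change of 1.32 in 4T1 over 67NR, beside a gene difference of -1.24. The call in Sesn2, probeset 4775957 in 4T1 over 67NR (relative change 1.18), was not made by the splicing index.

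**Figure D4:**
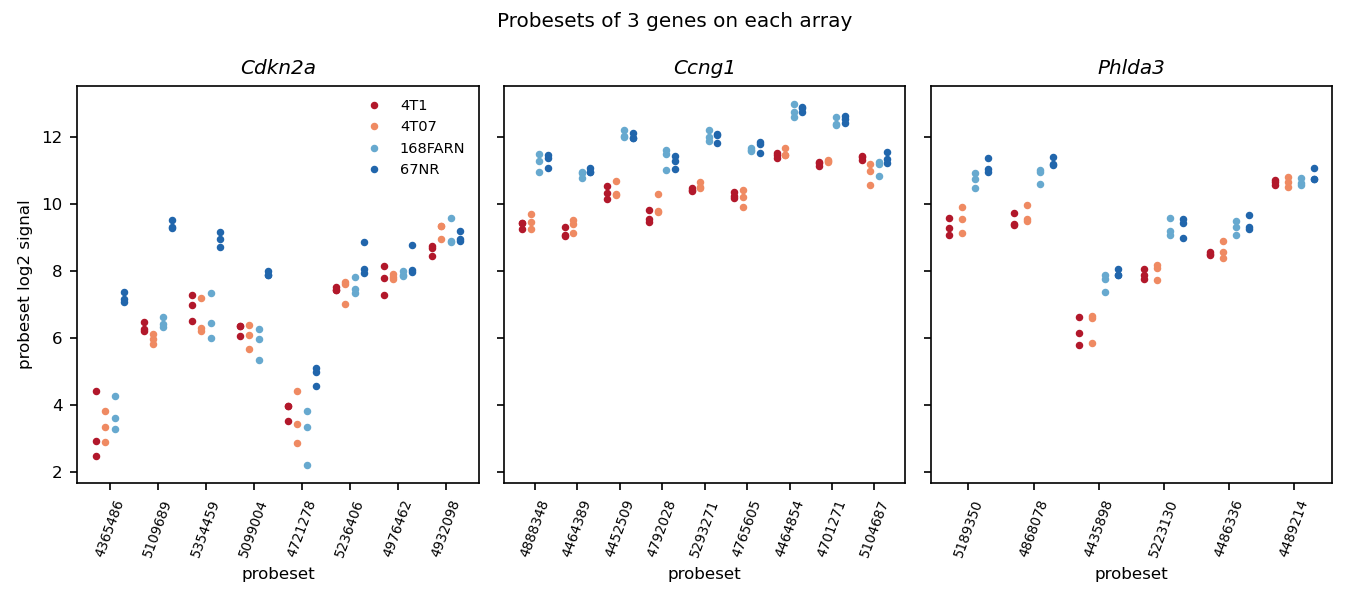
Log2 signal of each probeset of Cdkn2a, Ccng1 and Phlda3 on each array, with probesets ordered by the difference of 4T1 from 67NR. The probesets at the right end of each panel, 4932098, 5104687 and 4489214, differ least between 4T1 and 67NR in their genes.

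Other genes of the p53 pathway, 83 in 7 lists, were examined beyond the genes above, and 74 of them had a gene level. They were tested with limma in the fit of all 15025 genes, with p-values adjusted over all genes. These lists, too, were chosen with earlier results of these data known. Their calls are therefore no independent support for the levels of the genes above. By the F-test over the lines, 44 of the 74 differed, beside 42.0% of all genes. Against 67NR, 29 fell and 6 rose in 4T1, where 13.0% of all genes fell and 9.38% rose. In 4T07, 25 fell and 8 rose, where 12.7% of all genes fell and 11.0% rose, and in 168FARN 17 fell and 7 rose, where 11.2% fell and 13.5% rose. Both directions together, the shares of all genes were 22.3%, 23.7% and 24.7%. The median difference of the 74 from 67NR was -0.42 in 4T1, -0.33 in 4T07 and -0.17 in 168FARN, beside -0.04, -0.04 and 0.04 for all genes. Without 67NR array 2, the counts called were 20 in place of 33 in 4T07 and 14 in place of 24 in 168FARN. The 3 comparisons share the 67NR arrays, so they are not independent of each other.

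Of 18 measured targets in DNA repair, metabolism and secretion, 5 fell and 1 rose in 4T1, and 6 fell and 0 rose in 4T07, against 67NR, with medians of -0.40 and -0.49. Ephx1, the microsomal epoxide hydrolase, read 7.76, 8.16 and 7.98 in 4T1 and 7.69, 8.56 and 8.22 in 4T07, against 11.62, 11.77 and 11.69 in 67NR. The 67NR arrays stood more than 3 above all arrays of both lines, and the difference was -3.73 in 4T1 (adjusted p = 7.91e-08) and -3.54 in 4T07 (adjusted p = 1.44e-07, limma). Ddit4l, an mTOR inhibitor, fell in 4T1 (adjusted p = 9.23e-06, limma), with 4.38, 5.21 and 4.05 in 4T1 against 7.36, 7.29 and 6.97 in 67NR. Arrays 1 and 3 of 4T1, 2 of 3, were in the range of the background, which puts 67NR at least 4.24-fold above 4T1. In 4T07 Ddit4l was low as well, at 5.04, 4.74 and 4.66, all in the range of the background. The adenylate kinase gene Ak1 differed by -2.36 in 4T1 and by -1.10 in 4T07, and Pmm1, a phosphomannomutase gene, by -1.30 and -1.39. In 168FARN, 3 fell and 1 rose: Ddit4l (-1.23), Cd82 (-0.67) and Pmm1 (-0.66) fell, and Tigar, a regulator of glycolysis, rose by 1.13 (adjusted p = 0.00116, limma). With 168FARN array 1 alone, the calls of Tigar (adjusted p = 0.0692), Cd82 (adjusted p = 0.183) and Pmm1 (adjusted p = 0.159) in 168FARN were lost.

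The list of cell death targets moved both ways. Of 12, 6 fell and 2 rose in 4T1, and 5 fell and 3 rose in 4T07, against 67NR. Perp, which encodes a membrane protein of desmosomes and is a p53 target, rose in both 4T1 and 4T07. It read 8.99, 9.05 and 8.85 in 4T1 and 7.75, 7.004 and 9.12 in 4T07, against 4.70, 4.66 and 4.76 in 67NR. All 67NR arrays were in the range of the background, so the level was at least 14.8-fold higher in 4T1 and at least 7.35-fold higher in 4T07, and the adjusted p was 3.10e-06 in 4T1 and 3.42e-05 in 4T07 (limma). Epithelial markers are high on the same arrays, and their part in Perp was not tested. Tnfrsf10b, the death receptor of TRAIL, rose by 2.07 in 4T1 and by 2.31 in 4T07. Fas, a death receptor, rose in 4T07 to 5.79 ± 0.15, against 3 arrays of 67NR in the range of the background, so by at least 1.64-fold. The Fas call in 4T07 was lost when dim probesets were left out (adjusted p = 0.919). Falls included Steap3 at -1.18 and Trp53inp1 at -0.86 in 4T1, and the apoptosome gene Apaf1 at -0.89 in 4T07. In 168FARN Tnfrsf10b rose (1.10) while Apaf1 (-0.80) and Trp53inp1 (-0.69) fell. The Trp53inp1 call there was lost without 168FARN array 2, without array 3 and without both.

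Of 8 targets that act on the cell cycle, 3 fell and 1 rose in each of 4T1 and 4T07 against 67NR. Gtse1, which is known to restrain p53, differed by -1.77 in 4T1 (adjusted p = 1.75e-05, limma) and by -1.65 in 4T07, Psrc1 by -1.07 and -1.53, and the kinase gene Plk2 by -1.04 and -1.05. In 168FARN 3 fell and 2 rose. Gadd45a, a growth arrest gene, rose by 0.66 in 4T1, by 0.90 in 4T07 and by 0.85 in 168FARN. Its call in 4T1 was lost without 4T1 array 2 or 3 and without any 1 of the 67NR arrays. Of 9 cell cycle genes known to be lowered through p21, 6 fell and 0 rose in 4T1, and 6 fell and 0 rose in 4T07. They include the mitotic kinase Cdk1 (-1.08 in 4T1 and -1.004 in 4T07) and the proliferation marker gene Mki67 (-0.93 and -0.76). Cdkn1a, the gene of p21, was lower on the same arrays (-2.06 and -2.09), in the same direction as these genes and not the opposite one. The part of p21 in these levels was not tested. The Mki67 call in 4T07 was lost without 4T07 array 1 or 2 and without 67NR array 1 or 2. In 168FARN, Cdk1 (-0.72) and Plk1 (-0.62) were the 2 that fell, and each call was lost without any of 4 single arrays of 168FARN or 67NR.

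Regulators of p53 were mixed. Of 12, 5 fell and 1 rose in 4T1, 2 fell and 3 rose in 4T07, and 3 fell and 2 rose in 168FARN, against 67NR. Ppm1d, a phosphatase that shuts p53 off and is itself a target, averaged 8.30 ± 0.06 in 4T1 and 8.10 ± 0.26 in 4T07, against 9.05 ± 0.30 in 67NR (adjusted p = 0.00742 and 0.00135, limma). Trp53bp1, which acts at DNA breaks, rose by 0.81 in 4T07 and by 0.76 in 168FARN, and the kinase gene Hipk2 fell by 1.24 in 168FARN. Among 13 other kinase inhibitors and genes of the Rb pathway, 4 fell and 0 rose in 4T1, 3 fell and 0 rose in 4T07, and 4 fell and 1 rose in 168FARN. Rb1 differed by -0.80 in 4T1, a call lost without 67NR array 1, and Cdk6 by -0.64 in 4T1 and by -0.73 in 4T07, and the cyclin D2 gene Ccnd2 rose by 1.74 in 168FARN (adjusted p = 1.46e-05, limma).

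Of the neighbours of Cdkn2a on its chromosome, Mtap and Cdkn2b did not share its order. Mtap, an enzyme of methionine salvage, read 12.12, 12.12 and 12.08 in 4T1 and 11.94, 12.10 and 12.17 in 4T07, against 11.27, 11.01 and 10.98 in 67NR. It rose in both, by 1.02 (adjusted p = 0.000111) and 0.98 (adjusted p = 0.000145, limma), while Cdkn2a was lower. Mtap averaged 11.31 ± 0.10 in 168FARN. Cdkn2b, the gene of the p15 inhibitor, averaged 6.56 ± 0.21 in 4T1, 6.21 ± 0.07 in 4T07, 6.54 ± 0.33 in 168FARN and 6.44 ± 0.04 in 67NR, and did not pass the test in any of the 6 line pairs. Dmrta1 was under 5.08 on average in every line, so its order was not read.

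**Figure D5:**
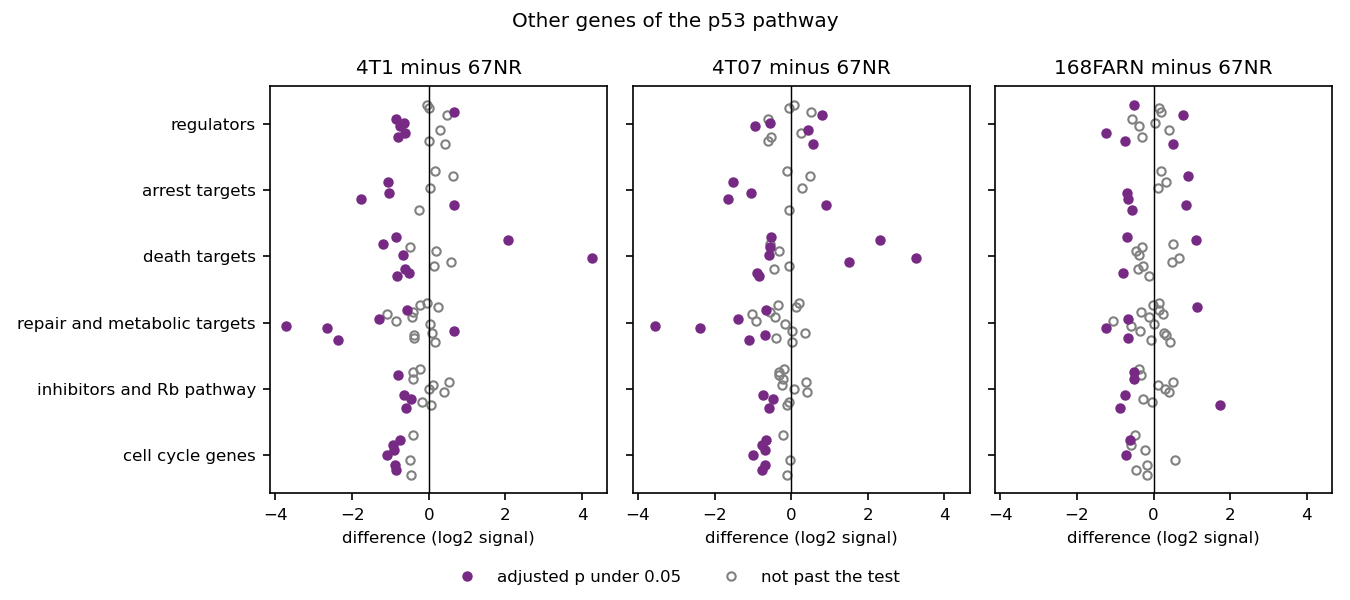
Log2 difference from 67NR of each measured gene in 6 lists of the p53 pathway, for 4T1, 4T07 and 168FARN. Filled points passed the limma test and open points did not; the filled points of the cell cycle list all lie under 0, and those of the cell death list lie on both sides.

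Against 168FARN, 16 of the 74 fell and 8 rose in 4T1, where 19.3% of all genes fell and 11.9% rose, 31.2% together. In 4T07, 14 fell and 7 rose, where 16.8% fell and 11.4% rose, 28.3% together. Ephx1 differed by -3.16 in 4T1 and by -2.96 in 4T07, Psrc1 by -1.40 and -1.86, and Ccnd2 by -1.68 and -1.84. Perp rose by 3.59 and 2.59. It read 5.20, 5.21 and 5.69 in 168FARN, just above the 5.08 background, so these distances are not exact. With 168FARN array 1 as the only array of its line, its spread taken from the remaining lines, 12 were called in place of 24 in 4T1 and 13 in place of 21 in 4T07. Between 4T1 and 4T07, Ak1 (-1.26, adjusted p = 0.00680) and Hipk2 (-0.87, adjusted p = 0.00802, limma) were the 2 that passed, both lower in 4T1, where 1.82% of all genes fell and 0.552% rose, 2.38% together. Without 4T07 array 3 there were 6.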

How the data were processed

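The authors deposited log2 signals per probeset and array, on a scale read from their range. No source used here states the summarization or normalization. Array medians lay between 7.21 and 7.57, and values were used as deposited. Probesets were paired with genes through the platform annotation, with symbols updated through RefSeq GRCm38.p6. Of 228090 probesets, 207232 carried 1 symbol, 3882 several and 16976 none. A gene level needed at least 3 probesets. A linear model of all 12 arrays, with line as the only term, was fitted per gene (limma 3.58.1, R 4.3.3, lmFit then eBayes), and p-values were adjusted by Benjamini-Hochberg at 0.05. The diffSplice test took probesets above the 25th percentile of mean signal, in genes with at least 4 of them. The fits were tested on simulated data. Figures were drawn with matplotlib 3.10.9 in Python 3.11.15.

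The members and the gene lists were chosen with earlier results of these data known. Outside the members, the text names at most 4 called genes per list and comparison, by size of change, and the 3 genes nearest in pattern to each member whose line means span at least 2. The neighbours of Cdkn2a, 3 in number, were all described. Alternatives were quantile normalization, median centring, the mean of probesets, filters on dim probesets and genes, a replicate block, each array left out, and 168FARN arrays 2 and 3 left out together. For arrays no read depth exists, and their number limits the precision.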

Additional observations from a re-analysis of the deposited data

How the results depend on the processing

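The number of other p53 pathway genes called among the 4 lines (44) lay between 32 and 47 with each array left out. The like ranges were 24 to 36 for 4T1 over 67NR (35), 20 to 35 for 4T07 over 67NR (33), 14 to 26 for 168FARN over 67NR (24), 19 to 26 for 4T1 over 168FARN (24), 18 to 23 for 4T07 over 168FARN (21) and 2 to 6 for 4T1 over 4T07 (2). With 168FARN arrays 2 and 3 left out together, 12 were called in 4T1 and 13 in 4T07 over 168FARN, in a fit with fewer arrays. Under quantile normalization, median centring, the mean of probesets and both filters on dim signal, each of these counts stayed within 1.5 times of its value. The 20 exon calls were 12 to 21 with each array left out, 11 by the splicing index, and 8 in genes above the median level alone, a filter chosen after seeing the data that leaves fewer genes. With the replicate block, 35 genes were called in 4T1 over 67NR and 21 exon calls were made, and no count of calls moved by over 1.5 times. The labels do not tie equal numbers to a shared animal or day, and 3 of 18 same-numbered pairs of arrays had deviations with a correlation over 0.1, so the numbers were not taken to pair the arrays. Of the 12 arrays, 7 correlated best with one of their own number. Of the members' level differences, 48 were computed under each of 4 settings. All 48 moved by less than 1 SD under quantile normalization, median centring and the filter on dim probesets, and 47 under the mean of probesets. With 168FARN array 1 alone, 7 of 24 moved by more. No difference between lines that did not overlap changed sign.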
